A study of Mus musculus with 6 samples.

Results

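The genes described here carry a cell from late G1 phase through the copying of its DNA. They are 30 genes chosen by name for their known roles, and all 30 were found among the 57180 gene rows of the deposited table and passed the filter on low counts. The rule is a list of gene names with no threshold on a measured value, and it was written with earlier results of these data known. The libraries come from GC-1 spg, an immortalised mouse line made from type B spermatogonia, which is a single line kept in serum-containing medium. The SNHG1 overexpression group (3 libraries) and the vector control group (3 libraries) were both collected 24 hours after transfection, and the labels of all 6 give "Non-obstructive azoospermia" as the treatment and testis as the tissue. The labels name neither the construct nor separate cultures behind the replicates, so a p-value reflects only how far these 6 libraries scatter, and that scatter may be technical.

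At entry into S phase, cyclin E binds the kinase CDK2 and helps to free E2F transcription factors from the retinoblastoma protein. E2F then raises the genes of DNA replication. In G1 the origin recognition complex, CDC6 and CDT1 load the ring-shaped MCM2-7 helicase onto DNA, which is called licensing, and geminin later blocks CDT1 so that each origin fires once. CDC45 and the GINS complex switch the helicase on, DNA polymerases copy the strands with the sliding clamp PCNA, and histone chaperones rebuild the chromatin behind the fork. Spermatogonia are the dividing germ cells of the testis and use these steps in each division. SNHG1 is a long non-coding RNA whose gene also hosts small nucleolar RNAs.

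Many promoters of such genes hold the E2F recognition sequence, and the members that hold it upstream of their start are shown first because this feature was not used to choose them. The sequence was searched as TTTCCCGC, TTTCGCGC, TTTGCCGC or TTTGGCGC on both strands, from 250 bases before to 50 bases after each start, in promoters from RefSeq (GRCm38.p6), where 25 of the 30 members had an entry. It was found in 11 of the 25, or 44%, against 4.88% of 9606 tested genes with an entry and 2.6% of all 27025 genes with one. It was not particular to the members, since 38.3% of 47 other S phase genes with an entry held it. Of 27 G2/M and mitosis genes with an entry, 3.7% held it. Of all 32851 promoter windows of that length, 2.26% held it. Cdt1, E2f2 and Mcm3 had matches only after the start. The other 8 are printed as 60 bases on the gene's own strand, 5′ to 3′, with the matches in capitals.
Orc1: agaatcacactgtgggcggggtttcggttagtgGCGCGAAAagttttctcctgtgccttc
Cdc6: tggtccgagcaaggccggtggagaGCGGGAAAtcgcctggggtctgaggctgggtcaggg
Mcm5: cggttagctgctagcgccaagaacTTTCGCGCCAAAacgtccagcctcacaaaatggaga
Mcm6: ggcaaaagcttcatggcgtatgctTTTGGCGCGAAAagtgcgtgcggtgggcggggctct
Mcm7: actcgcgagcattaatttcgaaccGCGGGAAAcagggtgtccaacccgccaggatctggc
Pola1: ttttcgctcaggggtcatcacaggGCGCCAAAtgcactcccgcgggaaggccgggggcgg
Uhrf1: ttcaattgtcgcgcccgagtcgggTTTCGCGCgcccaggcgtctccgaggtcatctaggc
Cdk2: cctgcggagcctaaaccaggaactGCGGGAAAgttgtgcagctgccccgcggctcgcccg

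In GRCm38.p6 these windows lie at chr4:108579394-108579453 (plus strand) for Orc1, chr11:98907989-98908048 (plus) for Cdc6, chr8:75109332-75109391 (plus) for Mcm5 and chr1:128359780-128359839 (minus) for Mcm6. The others lie at chr5:138172013-138172072 (minus) for Mcm7, chrX:93632258-93632317 (minus) for Pola1, chr17:56304104-56304163 (plus) for Uhrf1 and chr10:128705156-128705215 (minus) for Cdk2. The match of Orc1 began at position -27 from the start, the nearest upstream match of the 8, and Mcm7 had another match after its start, at position 17. Mcm5 and Mcm6 each had 2 matches that overlap, on opposite strands, and Mcm6 had another, outside the printed window, at position -47. The cell cycle homology region CHR (TTTGAA on either strand), known from promoters of mitotic genes, was found in 4 of the 25 members, or 16%, against 14.6% of tested genes and 70.4% of 27 promoters of G2/M and mitosis genes. The CCAAT box (CCAAT on either strand) was found in 16 of the 25, or 64%, against 44.3% of tested genes. Its share was 55.3% for other S phase genes and 77.8% for G2/M and mitosis genes. Such matches describe letters in these windows and no binding was measured.

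Total counts ran from 15521900 to 21095427 per library. Snhg1, the gene named as overexpressed, stood at 24.0, 26.4 and 25.3 CPM (counts per 1000000 counts, scaled with TMM factors) in the libraries labelled overexpression and at 22.1, 25.9 and 20.9 CPM in the vector libraries. The groups overlapped, and its log2 fold change of 0.14 ± 0.10 (SE, n = 3 per group) did not pass (edgeR, adjusted p = 0.52, range 0.255 to 0.797 over the alternatives). An increase of Snhg1 was therefore not detected, so the groups are called the labelled and the vector libraries, and every direction is that of the labels. Of 20 spermatogonial and germ cell markers 19 stayed under 1 CPM in every library, 9 of them at 0 counts, including Ddx4, Kit and Zbtb16, so the labelled germ cell identity was not visible in these markers. Their summed level was 2.81 to 4.05 CPM in the labelled and 2.64 to 3.18 CPM in the vector libraries, with Gfra1 the highest at a mean of 2.17 CPM. All marker values in this paragraph are CPM from total counts, without the TMM factors. Blood cell markers summed to 20.0 to 22.1 and 18.9 to 20.9 CPM, endothelial markers to 0.9746 to 1.67 and 1.09 to 1.22 CPM, and Leydig cell markers to 2.28 to 3.02 and 2.32 to 2.84 CPM, in the same order. Sertoli cell markers summed to 646 to 745 and 626 to 653 CPM, mostly Rhox5, with Wt1 and Fshr at 0 counts. Peritubular and fibroblast markers summed to 17630 to 18280 and 20780 to 22110 CPM, mostly the collagen gene Col1a2, with Lum at 0 counts. Of these 8 markers 4 stayed under 1 CPM in every library. Of the 4 tested, edgeR called 1 higher and 1 lower at an adjusted p of 0.05, where 2.4% of all tested genes were called. The part of these cell types in the results was not tested.

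No G1/S or DNA replication gene changed past the threshold between the labelled and the vector libraries. In edgeR's quasi-likelihood test, 0 of the 30 members passed an adjusted p of 0.05 in either direction, where 2.4% of all 14605 tested genes did. Without adjustment 4 members had a p under 0.05 and were higher, where 8.26% of all tested genes were, and 1 was lower, where 8.71% were. DESeq2 called 1 member, where it called 648 of 12617 genes with an adjusted p in either direction. Limma-voom called 0 members, where it called 347 of 14605 tested genes. Log2 fold changes ran from -0.25 to 0.45 with a median of 0.114, against 0.007 over all tested genes, and 24 of 30 members were above 0, or 80%, against 51.3% of all tested genes. The 30 members share 6 libraries and are not independent, so neither share is a test. The labelled and vector libraries did not overlap for 5 members that were higher (Ccne1, Orc1, Mcm3, Gins2 and Slbp), where 11.4% of all tested genes were separated that way. They did not overlap for 1 member that was lower (Ccne2), where 12.3% were. In cultured cells counted in bulk, a different share of cells in S phase and a different amount of RNA per cell cannot be told apart.

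**Figure D1:**
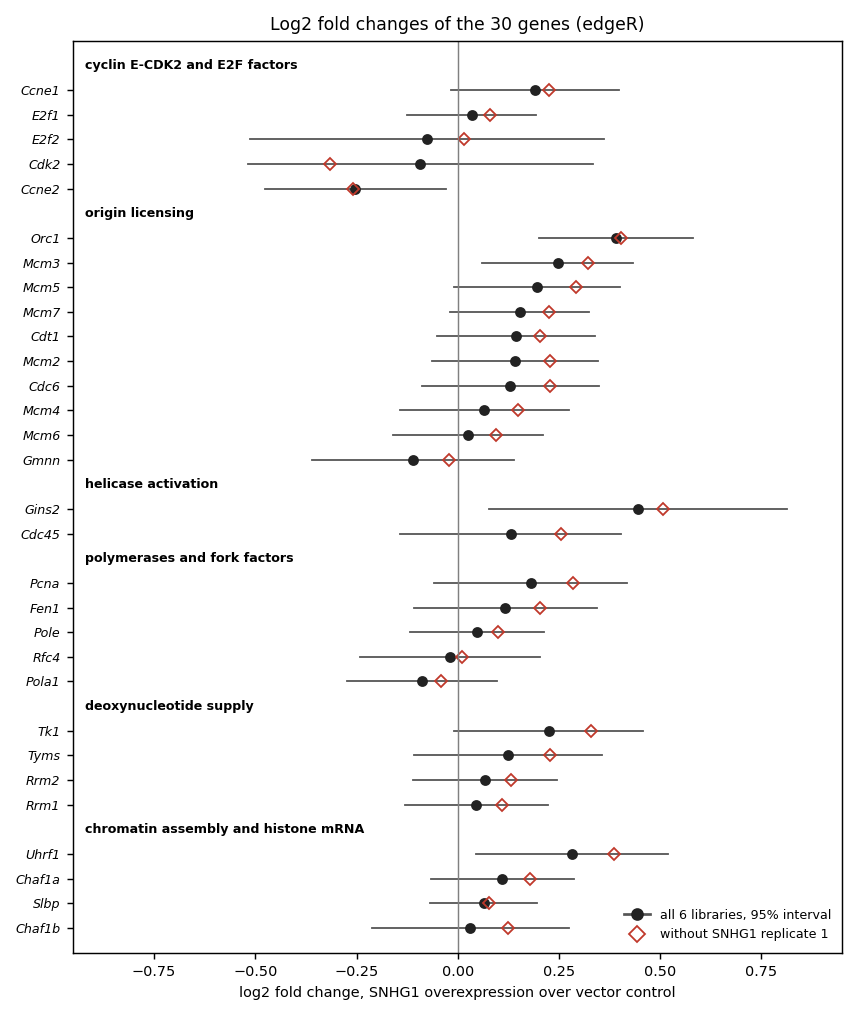
Log2 fold change of each of the 30 genes (horizontal axis, labelled SNHG1 overexpression over vector control), grouped by role, with its 95% interval from edgeR over all 6 libraries. Filled circles use all libraries, between -0.25 and 0.45, with 24 of 30 genes above 0. Open diamonds leave out SNHG1 overexpression replicate 1, which puts 26 of 30 genes above 0. The count was 20 without SNHG1 overexpression replicate 2 and 27 without SNHG1 overexpression replicate 3 (not drawn).

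The cyclin E, CDK2 and E2F genes had fold changes of either sign, and none passed. Ccne2, cyclin E2, stood at 11.3, 11.9 and 10.5 CPM in labelled replicates 1, 2 and 3 and at 13.4, 13.2 and 13.6 CPM in vector replicates 1, 2 and 3. All 3 labelled libraries were below all 3 vector libraries, with a log2 fold change of -0.25 ± 0.10 (SE, n = 3 per group) that did not pass (edgeR, adjusted p = 0.242, range 0.202 to 0.786 over the alternatives). With GC and length trends removed it was -0.07 ± 0.10 (SE), and Ints8, a row that overlaps Ccne2, held 773% as many counts. Its close relative Ccne1, cyclin E1, was higher, at 21.5 ± 1.51 against 18.9 ± 0.962 CPM (SD, n = 3), and did not pass either (edgeR, adjusted p = 0.326). Both cyclins activate CDK2, whose gene Cdk2 stood at 50.5, 36.2 and 30.9 CPM against 37.6, 49.6 and 38.3 CPM. Labelled replicate 1 and vector replicate 2 were high and the groups overlapped, with a log2 fold change of -0.09 ± 0.18 (SE). E2f2, an activating E2F factor with the lowest mean count of the members, stood at 6.89, 10.1 and 6.80 CPM against 9.15, 8.97 and 6.95 CPM, and the groups overlapped. E2f1, the E2F factor best known for driving S phase entry, was at 55.2 ± 3.22 against 53.9 ± 2.37 CPM (SD, n = 3).

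Orc1 came nearest to the threshold among all 30 members. It encodes the largest subunit of the origin recognition complex, which marks the sites where replication can start, and lies on chromosome 4 at 108436620 to 108472030 as the deposited table gives it, with no build named. Orc1 stood at 20.1, 21.5 and 19.9 CPM in the labelled libraries and at 15.9, 15.2 and 15.8 CPM in the vector libraries. The groups were well apart, with 1.31-fold higher means and a log2 fold change of 0.39 ± 0.08 (SE, 95% interval 0.20 to 0.58), but the test just missed the threshold (edgeR, adjusted p = 0.0556, alternatives 0.037 to 0.201). It passed with DESeq2 (adjusted p = 0.0404), where 2.85% of genes with an adjusted p were called higher, and with GC and length trends removed (adjusted p = 0.037), where 1.83% were, and also without labelled replicate 1 (adjusted p = 0.0495). A gene model that overlaps it, Gm12743, held 11.4% as many counts as Orc1 itself.

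The other licensing genes were above 0 except Gmnn. The 6 genes of the MCM2-7 ring had log2 fold changes of 0.03 to 0.25 with a median of 0.147, and none passed in edgeR. Mcm3 was highest among them at 0.25 ± 0.08 (SE, adjusted p = 0.18), then Mcm5 at 0.20 ± 0.09, Mcm7 at 0.15 ± 0.07, Mcm2 at 0.14 ± 0.09, Mcm4 at 0.07 ± 0.09 and Mcm6 at 0.03 ± 0.08. Cdt1 and Cdc6, whose products load the ring, were at 0.14 ± 0.08 and 0.13 ± 0.09. Geminin, the CDT1 inhibitor encoded by Gmnn, stood at 19.3, 22.4 and 24.9 CPM against 25.3, 23.9 and 22.7 CPM, so the groups overlapped, with a log2 fold change of -0.11 ± 0.11 (SE).

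Levels per length of transcript put the subunits of the ring above the factors that load it. In the vector libraries, dividing CPM by the length of the longest coding transcript in GENCODE M21, Mcm5 stood at 55.5 ± 1.75 CPM per kilobase, Mcm7 at 52.7 ± 1.46, Mcm3 at 51.1 ± 2.07, Mcm2 at 48.0 ± 2.45, Mcm4 at 43.2 ± 3.16 and Mcm6 at 41.9 ± 2.66 (SD, n = 3). Each neighbouring pair in this order differed by less than the sum of its SDs, but the ends of the order, Mcm5 and Mcm6, were further apart than the sum of theirs. The loading factors were far lower, with Cdt1 at 26.98 ± 1.08, Cdc6 at 8.65 ± 0.134 and Orc1 at 5.19 ± 0.116 CPM per kilobase. Over all 30 members this level ran from 1.76 ± 0.258 for E2f2 to 67.6 ± 4.68 for Pcna. These levels assume 1 transcript per gene, and for Pcna some reads may belong to the pseudogene row Pcna-ps2, which held 69.2% as many counts. Mcm7 overlaps the rows Cops6 and Ap4m1, which held 56.2% and 31.2% as many counts, so its place in the order is uncertain.

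Gins2 had the highest fold change of the 30 with all libraries, although Orc1 was above it with GC and length trends removed, without labelled replicate 3 and without vector replicate 1. It encodes a subunit of GINS, which joins CDC45 and the ring to form the active helicase. Gins2 stood at 19.7, 18.9 and 26.5 CPM in the labelled libraries and at 14.9, 14.2 and 18.6 CPM in the vector libraries. The groups did not overlap, but labelled replicate 2 and vector replicate 3 were nearly equal, and the log2 fold change of 0.45 ± 0.16 (SE) did not pass (edgeR, adjusted p = 0.212, range 0.103 to 0.454 over the alternatives). Without labelled replicate 3 it was 0.28 ± 0.14 (SE), and Gse1, a row that overlaps Gins2, held 219% as many counts. Cdc45 was at 39.9 ± 6.52 against 36.4 ± 1.58 CPM (SD, n = 3), a log2 fold change of 0.13 ± 0.12 (SE), which was 0.26 without labelled replicate 1 and 0.03 without labelled replicate 2.

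**Figure D2:**
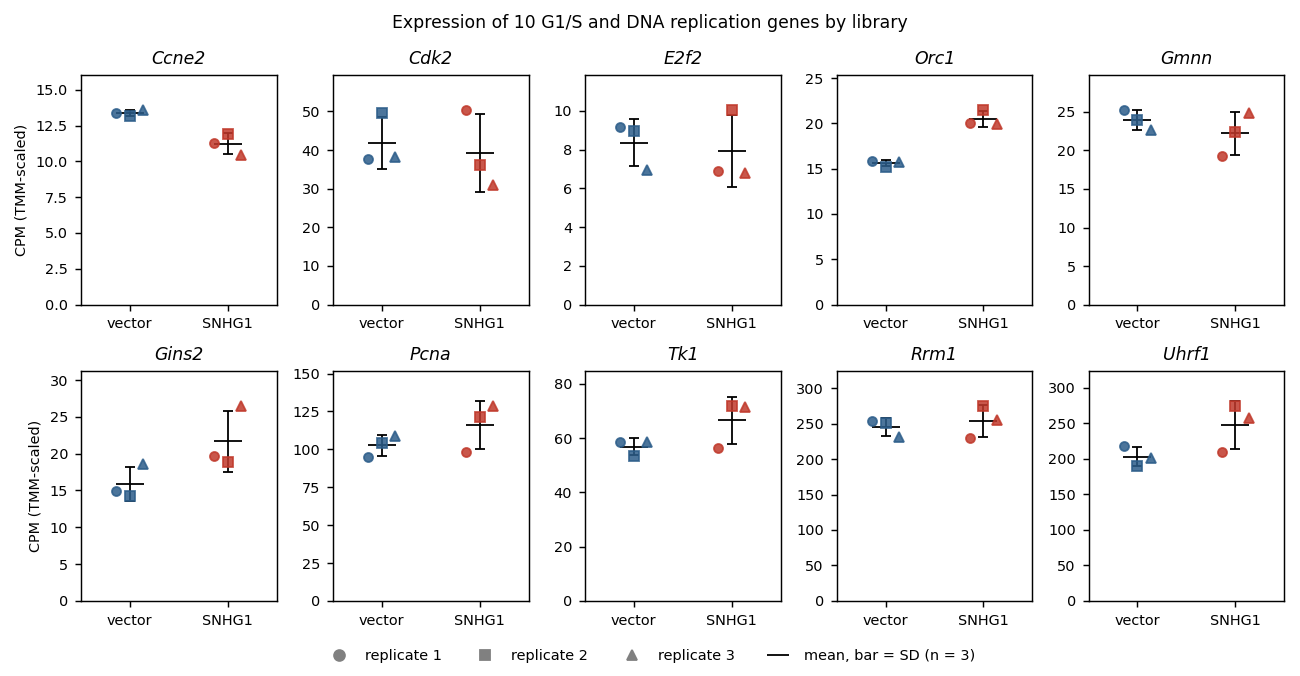
TMM-scaled CPM (vertical axis, from 0) of 10 genes in each library, with the mean and SD of 3 libraries per group and a marker for each replicate number. Orc1, Gins2 and Ccne2 have groups that do not overlap, whereas Pcna, Tk1, Rrm1 and Uhrf1 have labelled replicate 1 (circle) below the other labelled libraries.

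Genes of the replication fork and of nucleotide supply were mostly a little above 0, and their labelled libraries disagreed among themselves. Pcna stood at 98.5, 121.5 and 128.6 CPM against 94.7, 104.5 and 108.6 CPM, with a log2 fold change of 0.18 ± 0.10 (SE) and an adjusted p of 0.411 in edgeR. Labelled replicates 2 and 3 were above every vector library, and labelled replicate 1 was inside the vector range. Fen1, the flap nuclease that trims Okazaki fragments, was at 0.12 ± 0.10 and Pole, the leading-strand polymerase, at 0.05 ± 0.07 (log2, SE). Pola1, the polymerase that starts each strand, was at -0.09 ± 0.08, and Rfc4, a clamp loader subunit, at -0.02 ± 0.10. Rfc4 overlaps Eif4a2 in the table, which held 24172 counts in all, and whether the counting used strand is not stated in the sources used here. In all, 17 of the 30 members overlap another row, and the split of reads between such rows is uncertain.

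Tk1, thymidine kinase of the salvage route, showed the same split. It stood at 56.4, 71.9 and 71.4 CPM in the labelled libraries and at 58.6, 53.4 and 58.7 CPM in the vector libraries, with a log2 fold change of 0.22 ± 0.10 (SE) and an adjusted p of 0.31 in edgeR. Again labelled replicates 2 and 3 stood above all vector libraries and labelled replicate 1 did not. Rrm1, the large subunit of ribonucleotide reductase and the member with the highest mean count, stood at 230.0, 274.7 and 255.3 CPM against 253.8, 251.4 and 230.7 CPM, and the groups overlapped at 0.05 ± 0.08 (log2, SE). Rrm2, its partner subunit, was at 0.07 ± 0.08 and Tyms, thymidylate synthase, at 0.12 ± 0.10 (log2, SE).

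Uhrf1 was highest of the chromatin genes. Its product binds newly copied, half-methylated DNA and brings in the maintenance methyltransferase. Uhrf1 stood at 209.1, 274.0 and 257.5 CPM against 217.6, 190.2 and 201.1 CPM, with a log2 fold change of 0.28 ± 0.10 (SE) that did not pass (edgeR, adjusted p = 0.223, range 0.0311 to 0.509 over the alternatives). Labelled replicate 1 lay inside the vector range and the other labelled libraries above it. Chaf1a and Chaf1b, subunits of the histone chaperone CAF-1, were at 0.11 ± 0.08 and 0.03 ± 0.11 (log2, SE). Slbp, which binds the stem-loop of histone mRNA, varied least, at 56.9 ± 1.94 against 54.4 ± 0.522 CPM (SD, n = 3), and its groups did not overlap although the log2 fold change was only 0.06 ± 0.06 (SE).

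The 30 genes moved together by library, and within the labelled group by more than the difference between the groups. For each library, the log2 CPM of a member was set against that member's mean over the 6 libraries and averaged over the 30. This level was -0.0852, 0.14 and 0.0851 in labelled replicates 1, 2 and 3 and -0.0185, -0.06 and -0.0612 in vector replicates 1, 2 and 3. Labelled replicate 1 was thus the lowest of all 6 libraries and labelled replicate 2 the highest. The members above their own mean numbered 5, 26 and 26 of 30 in the labelled and 14, 8 and 3 in the vector libraries. Labelled replicate 1 was the lowest labelled library for 24 of 30 members, or 80%, against 35.6% of all tested genes. The level varied over 0.225 log2 units among labelled libraries and over 0.0428 among vector libraries, whereas the group means were 0.0466 and -0.0466 with SDs of 0.117 and 0.0244 (n = 3). The group difference was therefore smaller than the spread among the labelled libraries, but larger than the spread among the vector libraries.

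**Figure D3:**
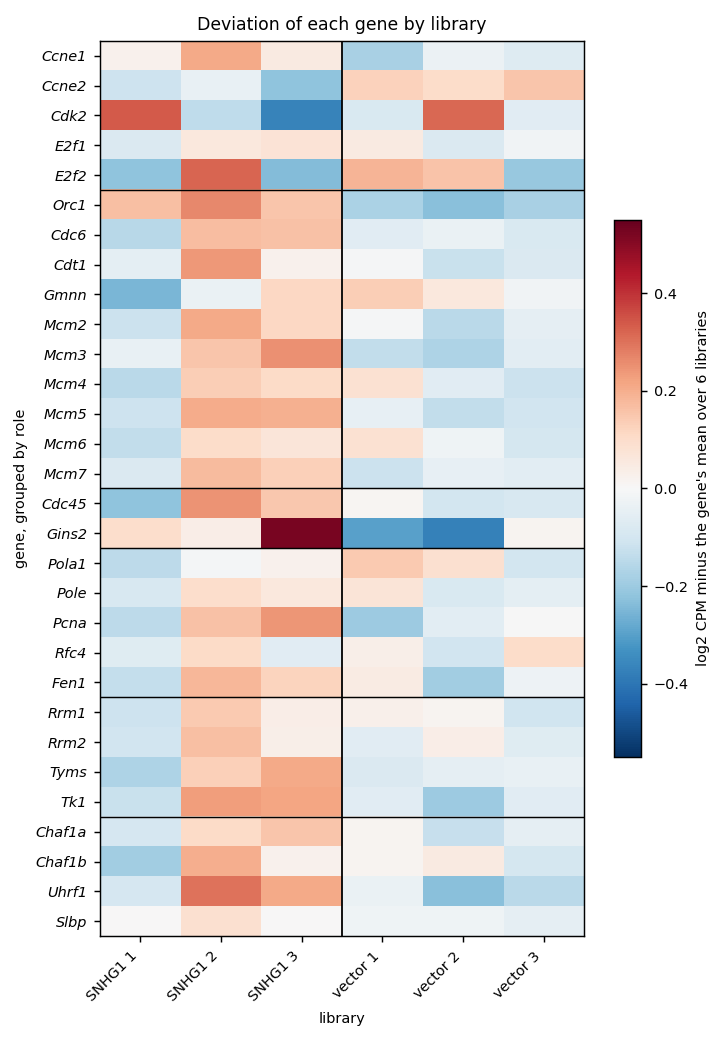
Log2 CPM of each gene (rows, grouped by role) in each library (columns) minus the gene's mean over 6 libraries, in colour from blue (lower) to red (higher). Labelled replicate 1 is below the mean for 25 of 30 genes and labelled replicates 2 and 3 above it for 26 each, with Orc1, Ccne2, Cdk2, E2f2 and Gins2 showing other patterns.

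Pairs of members followed each other also with the group means removed. Over the 435 pairs, the median Pearson r of these deviations over 6 libraries was 0.621, and 87.1% of pairs were above 0, whereas 1461 tested genes taken at regular steps through the identifiers gave a median of -0.002 and 49.9%. The co-movement was not particular to the members. For 30 G2/M and mitosis genes the values were 0.678 and 98.85%, and for 60 other S phase genes 0.385 and 70.96%. Against the mean of the other 29 members, Cdc45 had r = 0.998, Mcm5 0.972, Uhrf1 0.958 and Mcm2 0.947. Cdk2 went the other way at -0.805, and Gins2 at -0.005 and Ccne2 at 0.102 hardly followed the rest. All points share the same 6 libraries, so these values are a description only.

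Leaving out labelled replicate 1 changed the calls. It was the lowest labelled library for 24 of 30 members, so a rise of most fold changes without it was fixed in advance. The calls without it are therefore a description and no support for a group difference. The count rose from 0 to 5 members called higher by edgeR, where 2.91% of 14903 tested genes were called higher, and the median log2 fold change from 0.114 to 0.191. The 5 were Uhrf1 at 0.39 ± 0.07, Orc1 at 0.40 ± 0.09, Tk1 at 0.33 ± 0.07, Mcm3 at 0.32 ± 0.06 and Mcm5 at 0.29 ± 0.05 (log2, SE), with adjusted p values of 0.0311, 0.0495, 0.0422, 0.0323 and 0.0287 in edgeR. Over all alternatives their adjusted p ran up to 0.509, 0.201, 0.606, 0.422 and 0.603. Mcm3 and Mcm5 are named here after their values were seen. Without labelled replicate 2 the median fell to 0.045, without labelled replicate 3 it was 0.075, and both fits called 0 members. Over all tested genes, the score of labelled replicate 1 on principal component 2, which held 19.2% of the variance, was 28.7, whereas labelled replicates 2 and 3 had scores of -9.10 and -13.8. The vector libraries were spread on it too, with scores of 1.90, -14.6 and 6.87 for replicates 1, 2 and 3. The total count of labelled replicate 1 (19495464) lay between those of the other labelled libraries (21058425 and 19204858), and so did its mitochondrial share of counts (2.62%, between 2.63% and 2.41%). That share was 2.80% to 3.33% in the vector libraries, and its part in the results was not tested.

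The library pattern was not limited to the 30 members. Among 60 other S phase genes, such as E2f7, Mcm10 and Lig1, 0 passed in edgeR, where 2.4% of all tested genes did. Without adjustment in edgeR, 2 had a p under 0.05 and were higher, and 1 was lower. Over all tested genes these shares were 8.26% and 8.71%. Among the 60 genes DESeq2 and limma-voom called 0, and the median log2 fold change was 0.0612. In all, DESeq2 called 648 of 12617 genes with an adjusted p, and limma-voom 347 of 14605 tested genes. Their level by library was -0.0818, 0.087 and 0.0467 in the labelled and 0.0144, 0.00286 and -0.0692 in the vector libraries. Among 30 G2/M and mitosis genes, 0 passed in edgeR, DESeq2 and limma-voom, 2 higher had an unadjusted p under 0.05, and the level was -0.102, 0.0931 and 0.079 against 0.0531, -0.0627 and -0.0608. Labelled replicate 1 was below the mean for 51 of the 60 and 28 of the 30 genes. Without it edgeR called Mcm10 and Dctpp1 higher, Orc4 lower and the mitotic checkpoint kinase Bub1b higher. Of all 14903 genes tested in that fit, 807 were called in either direction. Labelled replicate 1 was the lowest labelled library for 48 of the 60 and 25 of the 30 genes, so these calls are a description only.

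**Figure D4:**
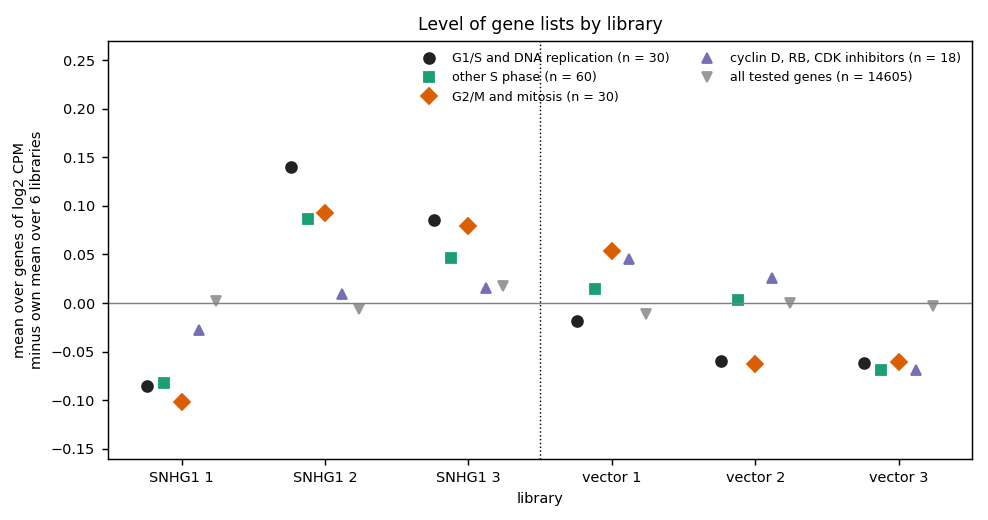
Mean over the genes of a list of log2 CPM minus each gene's own mean over 6 libraries (vertical axis) in each library, for the 30 genes, 3 other fixed lists and all tested genes. The G1/S, other S phase and mitosis lists are lowest in labelled replicate 1 (-0.0852, -0.0818 and -0.102) and highest in labelled replicate 2. All tested genes stay near 0, which the TMM scaling largely sets.

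Upstream of the members, the genes of cyclin D, the retinoblastoma family and the CDK inhibitors had 1 call. Over all tested genes 2.4% were called. Of 22 listed genes 18 were tested, and the other 4 had 13 counts (Cdkn1c) or 0 counts (Cdkn2a, Cdkn2b and Mycn) in all libraries together. Cdk6, a kinase that works with D cyclins, rose from 158.8 ± 5.41 to 208.0 ± 11.7 CPM (SD, n = 3), by 0.39 ± 0.06 on the log2 scale (SE, edgeR adjusted p = 0.0184, range 0.000101 to 0.095 over the alternatives). It stood at 194.7, 216.5 and 212.8 CPM against 163.5, 160.0 and 152.9 CPM, with no overlap, but it did not pass when any library other than labelled replicate 1 was left out, with an adjusted p of up to 0.095, nor with the replicate block (edgeR, adjusted p = 0.0797). Its log2 fold change was 0.359 to 0.433 with 1 library left out and 0.388 with the block. Without adjustment in edgeR, 1 gene of the list (Cdk6) had a p under 0.05 and was higher, where 8.26% of all tested genes were. Another 2 were lower, where 8.71% were. These were the CDK inhibitor p27 (Cdkn1b) at -0.21 ± 0.08 and cyclin D2 (Ccnd2) at -0.15 ± 0.05 (log2, SE), and neither passed with adjustment (edgeR, adjusted p = 0.224 and 0.19). The groups did not overlap for 2 of these 18 genes that were higher and 3 that were lower. Over all tested genes 11.4% and 12.3% were separated in these directions. The list's level stayed between -0.0688 and 0.0454 in every library, and labelled replicate 1 was below the mean for 9 of its 18 genes.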

How the data were processed

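Poly(A)-selected, stranded paired-end mRNA libraries were sequenced from 6 samples, 3 per group, assigned from their titles. The authors deposited 1 table with whole-number counts and FPKM values per gene and library. The tools HISAT2, StringTie and SAMtools 1.3.1 and the human build GRCh38 are named per the submitters' processing notes. Since the identifiers of all 57180 rows are mouse Ensembl ones, coordinates from the table are printed with no build. Neither the counting tool nor its strand setting is stated in the sources used here. The deposited FPKM values were not used for levels, because the gene length they imply exceeded the longest coding transcript by over 1.5 times for 24 of 30 members.

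Counts were tested with edgeR 4.0.16 in R 4.3.3 (TMM, default filterByExpr, quasi-likelihood F test, group as the only term) over 14605 genes, with Benjamini-Hochberg adjustment over all of them at 0.05. The log2 CPM values used a prior count of 2. Total counts per library make 1 count worth 0.0474 to 0.0644 CPM, and a count of 0 allows up to 3 counts. Such limits cover counting error only. The pipeline was tested on simulated data. Over all tested genes, deviations of same-numbered libraries correlated at -0.004, -0.030 and -0.021. These values run over all genes and cannot exclude an effect of replicate number on some of them. The replicate block is therefore among the alternatives.

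Alternatives were DESeq2 1.42.0, limma-voom (limma 3.58.1), other scalings (median-of-ratios factors or library totals), other filters (none, or 1 CPM in at least 3 libraries), the replicate block, GC and length trends removed (loess, on the 97.5% of tested genes with a GENCODE M21 transcript), and leaving out each library. The members and lists were chosen with earlier results of these data known. Per-library values are given for members with the 3 highest and 3 lowest fold changes, the highest and lowest mean count and the smallest p in each role, and for called genes of other lists (up to 3 per direction). Other genes were named after their values were seen. Motif searches used RefSeq promoter sequences.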

Additional observations from a re-analysis of the deposited data

How the results depend on the processing

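Over the 14 alternatives 19 members stayed above 0 and 2 below 0, and 9 took either sign. Against 350 genes called in all, DESeq2 called 648 and the replicate block 163, and leaving out 1 library gave 123 to 807. Members called higher numbered 1 with DESeq2, 1 with GC and length trends removed and 0 to 5 with 1 library left out, against 0, and members called lower stayed at 0. Cdk6, the only call of the cyclin D list, was lost with the replicate block (0 called) and in 5 of 6 fits with 1 library left out (0 to 1 called), while its log2 fold change stayed at 0.388 and at 0.359 to 0.433. Those fits called 0 to 2 other S phase genes higher, 0 to 1 lower, and 0 to 1 mitosis genes higher. The causes were not tested, and such fits hold fewer samples.

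Members with fold changes near 0 changed sign in some fits. With GC and length trends removed, log2 fold changes were -0.038 for E2f1, 0.035 for Pola1, 0.015 for Rfc4 and -0.034 for Chaf1b. With 1 library left out they ran from -0.316 to 0.055 for Cdk2, -0.001 to 0.080 for E2f1, -0.288 to 0.025 for E2f2, -0.020 to 0.094 for Mcm6, -0.078 to 0.023 for Rfc4, -0.016 to 0.110 for Rrm1, -0.002 to 0.131 for Rrm2 and -0.070 to 0.125 for Chaf1b. Members that kept their sign moved too, for example from 0.033 to 0.256 for Cdc45, 0.055 to 0.203 for Cdt1, 0.075 to 0.227 for Cdc6, 0.048 to 0.227 for Tyms, 0.103 to 0.284 for Pcna, 0.051 to 0.204 for Fen1, -0.198 to -0.021 for Gmnn and 0.279 to 0.568 for Gins2. Removing GC and length trends also moved Ccne2 to -0.071 and Tk1 to 0.131. The median of the members ran from 0.045 to 0.191 in those fits, and from 0.089 to 0.123 in the others. The level of the members by library moved by less than the spread between replicates under every alternative tried for it. In 3 libraries per group, log2 fold changes were 0.25 or less in size for most members, with standard errors of 0.0575 to 0.19. Some were below their SE, such as 0.03 ± 0.08 for Mcm6, and others well above it, such as 0.39 ± 0.08 for Orc1.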
